A study of Mus musculus with 4 samples.

Results

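The Clec4 C-type lectin receptors were examined in cultured Kupffer cells, macrophages that live in the sinusoids of the mouse liver. The 10 genes, of 45616 genes and identifiers on the array, were chosen by name: any probe whose RefSeq accession or gene name resolved to a listed Clec4 gene was taken, which gave 11 probes. The choice was made with the contrast of maresin 1 and vehicle arrays already known, and the same contrast set the Mincle and Dectin-2 type receptors against Clec4f and Clec4g, so the differences of these genes are given as a description, with no test. Cells came from male C57BL/6 mice aged 8 weeks, were isolated by collagenase perfusion and a Percoll gradient, and were plated in medium with 10% serum. They were then kept for 24 h in medium with 0.1% serum that held either 200 nM maresin 1 (MaR1, 2 arrays) or its ethanol vehicle (Veh, 2 arrays). Maresin 1 is a signalling lipid derived in macrophages from the omega-3 fatty acid docosahexaenoic acid. Whether replicate arrays stand for separate cultures or mice is not given in the labels, so standard errors and p-values reflect array-to-array spread, which may be technical.

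Most Clec4 proteins are membrane receptors with 1 carbohydrate-recognition domain outside the cell. The activating ones have no signalling motif of their own and pair with the Fc receptor gamma chain, through which the kinase SYK and the adaptor CARD9 switch on NF-kappaB and cytokine genes. The DCIR type instead includes inhibitory receptors with a tail motif that recruits phosphatases. Clec4f and Clec4g are related lectins of the liver itself, known from Kupffer cells and from sinusoidal endothelial cells.

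On each array 54.4% to 55.6% of 56605 probes exceeded background by the scanner software's criterion (called well above background here), and 0 spots were saturated. The 75th percentile of the processed signal, by which levels were scaled, was 946 and 847 on the MaR1 arrays, against 961 and 988 on the Veh arrays. Levels below are log2 of the processed signal minus log2 of that percentile. All 4 arrays lay on 1 slide with each group in its own pair of positions, so group and position cannot be told apart. Of the 24 listed Kupffer cell identity genes all 24 were measured, among them Marco (level 8.24 in MaR1, 8.43 in Veh), a scavenger receptor gene that was the brightest of that list.

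The genes from Clec4a1 to Clec4e lie side by side on chromosome 6 in the RefSeq table of GRCm38.p6, in the order Clec4a1, Clec4a3, Clec4a4, Clec4b1, Clec4a2, Clec4b2, Clec4n, Clec4d and Clec4e. Clec4f lies elsewhere on chromosome 6 and Clec4g on chromosome 8. Of the 7 measured genes of the chromosome 6 row, 7 had a lower mean with MaR1, as did 12688 of all 24055 genes. The 7 include Clec4a4, whose arrays overlapped between the groups. The median log2 difference of the row was -1.24, while Clec4f and Clec4g differed by 0.04 and -0.18. The 250 bases before the gene start are shown for 3 genes with large decreases and for Clec4f, whose level hardly differed (RefSeq, GRCm38.p6). Each is written 5′ to 3′ on its gene's strand, with the letters GAGGAA, the core of sites bound by the macrophage factor PU.1, or their reverse complement TTCCTC in capitals.
Clec4d, chr6:123261857-123262106, + strand: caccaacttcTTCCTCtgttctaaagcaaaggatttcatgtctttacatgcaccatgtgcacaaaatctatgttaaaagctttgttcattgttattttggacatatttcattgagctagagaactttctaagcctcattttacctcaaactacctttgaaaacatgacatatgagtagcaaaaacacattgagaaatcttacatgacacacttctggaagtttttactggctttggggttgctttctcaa
Clec4e, chr6:123289872-123290121, - strand: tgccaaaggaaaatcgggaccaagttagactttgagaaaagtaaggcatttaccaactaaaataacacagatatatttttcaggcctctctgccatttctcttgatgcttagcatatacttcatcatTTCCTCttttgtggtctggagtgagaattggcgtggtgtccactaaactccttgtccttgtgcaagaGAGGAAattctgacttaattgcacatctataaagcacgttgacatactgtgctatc
Clec4b1, chr6:123049712-123049961, + strand: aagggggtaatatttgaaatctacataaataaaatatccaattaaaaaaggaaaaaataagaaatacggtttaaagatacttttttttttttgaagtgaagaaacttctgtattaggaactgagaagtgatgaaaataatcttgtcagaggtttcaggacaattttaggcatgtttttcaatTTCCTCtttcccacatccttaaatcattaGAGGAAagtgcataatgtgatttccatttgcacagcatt
Clec4f, chr6:83656117-83656366, - strand: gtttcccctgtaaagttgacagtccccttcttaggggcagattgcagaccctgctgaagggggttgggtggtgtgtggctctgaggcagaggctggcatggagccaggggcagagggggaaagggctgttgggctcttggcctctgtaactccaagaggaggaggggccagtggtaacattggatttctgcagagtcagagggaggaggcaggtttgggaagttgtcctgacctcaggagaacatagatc

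RefSeq windows were matched for 8 of the 10 genes, all but Clec4n and Clec4a4. The PU.1-type core was chosen after these sequences were seen. Clec4a3 has windows at 2 starts, which made 7 windows of 6 genes from the chromosome 6 row. The core occurred on either strand in 5 of these 7 windows (those of Clec4a1, Clec4b1, Clec4d and Clec4e and 1 of the Clec4a3 windows) and in neither that of Clec4f nor that of Clec4g, and 23.3% of all 32851 promoter windows in the table held it. In Clec4b1 the copies began 68 and 39 bases before the start, and in Clec4e 123 and 56 bases. The 1 copy in Clec4d began 240 bases before the start. The C/EBP-type letters TTNNGNAA were found in the windows of Clec4a2, Clec4d, Clec4e and Clec4f and in 36.8% of all windows. The half-site AGGTCA of ROR receptors, which can overlap other nuclear receptor sites, was found in the window of Clec4f alone among the 9 windows, and in 14% of all windows. The letters of STAT sites were found in the window of Clec4a2 (TTCNNNGAA, 7.02% of all windows) and in that of Clec4a1 (the STAT6 consensus, 5.85%). The AP-1 letters TGANTCA (6.75% of all windows) and the NF-kappaB consensus (7.25%) were in 0 of the 9 windows. These are matches of letters on both strands, and binding was not measured.

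Clec4n encodes Dectin-2, a receptor for fungal mannans that signals through the Fc receptor gamma chain. Its processed signal was 7358 and 6039.8 on the MaR1 arrays, against 31674.5 and 28775.8 on the Veh arrays. The groups did not overlap, and both Veh arrays stood far above both MaR1 arrays. The level averaged 2.90 ± 0.09 in MaR1 and 4.95 ± 0.13 in Veh samples (SD, n = 2 each), a difference of -2.06 ± 0.09 in log2 units (± is the limma standard error here and for differences below), or 4.16-fold lower. Among the 24055 genes measured, 11 genes had a more negative fitted difference, so Clec4n stood at position 12 from the bottom. In bulk RNA, fewer cells of a type and less RNA per cell cannot be told apart.

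Clec4d encodes MCL, also called Dectin-3, which pairs with Mincle and with Dectin-2 and helps to bring Mincle to the cell surface. Its signal was 6314 and 5490.03 in MaR1 samples, against 22482 and 22942.6 in Veh samples. The level averaged 2.72 ± 0.03 in MaR1 and 4.54 ± 0.01 in Veh (SD, n = 2 each), and the log2 difference was -1.82 ± 0.06, or 3.54-fold lower. The arrays of each group lay close together, and the gap between the highest MaR1 and the lowest Veh level was 1.80 on the log2 scale.

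Clec4e encodes Mincle, which binds the mycobacterial cord factor trehalose dimycolate and the nuclear protein SAP130 from dying cells. Its signal was 1677 and 1440.45 in MaR1 samples, against 3976 and 4037 in Veh samples. Both Veh arrays were again above both MaR1 arrays. Levels averaged 0.80 ± 0.04 in MaR1 and 2.04 ± 0.01 in Veh (SD, n = 2 each), a log2 difference of -1.24 ± 0.06, or 2.37-fold lower. Sap130 itself, the gene of the endogenous Mincle ligand, had a difference of 0.14 ± 0.07 that did not pass (limma adjusted p = 0.189).

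Clec4b1 encodes DCAR, an activating receptor of mouse dendritic cells and macrophages that also pairs with the Fc receptor gamma chain. It was the member with more than 1 probe. Its brighter probe gave a signal of 1683 and 1561 in MaR1 samples, against 5932 and 5999.6 in Veh samples, a log2 difference of -1.76 ± 0.06, or 3.38-fold lower. Its dimmer probe gave 466 and 366 in MaR1 samples, against 1889 and 1844 in Veh samples, a log2 difference of -2.05 ± 0.09. Both probes had the Veh arrays above the MaR1 arrays with no overlap, and the probes differed in size by less than the distance of either from 0.

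**Figure D1:**
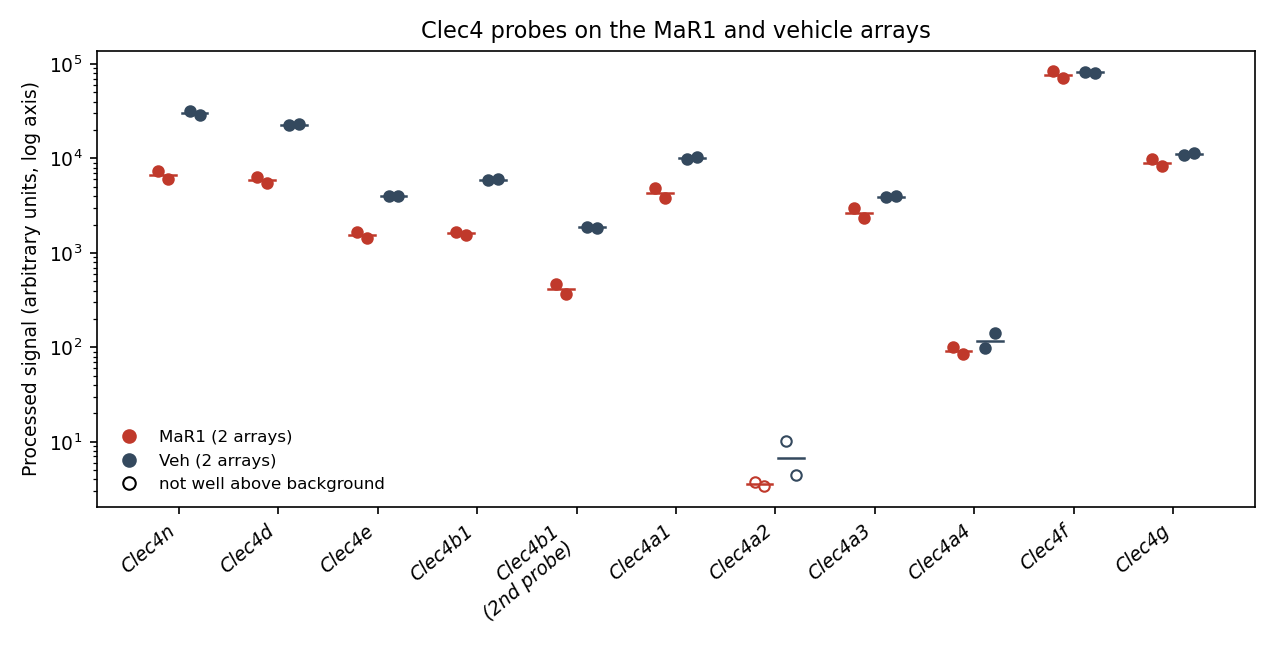
Processed signal (arbitrary units, log axis, not scaled between arrays) of every Clec4 probe on each of the 2 MaR1 (red) and 2 Veh (dark) arrays, with a line at each group's geometric mean and open points where the probe was not well above background. The MaR1 points of Clec4n, Clec4d, Clec4e, Clec4b1 and Clec4a1 sit well below the Veh points, and those of Clec4f lie around the same height in both groups; heights of different probes are not comparable.

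The 4 DCIR-type genes differed less or were dim. Clec4a1 (also named Dcir4) had a signal of 4817 and 3847 in MaR1 samples, against 9927 and 10372.5 in Veh samples. Its log2 difference was -1.11 ± 0.08, or 2.16-fold lower, and the groups did not overlap. Clec4a3 (Dcir3) had 2993 and 2359 in MaR1 samples, against 3924 and 3989 in Veh samples, a log2 difference of -0.45 ± 0.08. The smaller decrease of Clec4a3 ranged from -0.54 to -0.36 when 1 array was left out.

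Clec4a4 (Dcir2), an inhibitory receptor gene of CD8-negative dendritic cells, was dim, at 99.8 and 85.4 in MaR1 samples, against 98.3 and 141 in Veh samples. The groups overlapped, because the Veh arrays stood further apart (level -3.28 ± 0.05 in MaR1 and -3.05 ± 0.34 in Veh, SD, n = 2 each). The log2 difference of -0.23 ± 0.17 became -0.46 without Veh replicate 1 and 0.01 without Veh replicate 2. Clec4a2 (Dcir1), which encodes the first described inhibitory receptor DCIR, did not exceed background on any of the 4 arrays, with a signal of 3.73 and 3.40 in MaR1 samples, against 10.2 and 4.42 in Veh samples. Its 1 probe is assigned to 1 RefSeq transcript of the gene, and whether it also reads other transcripts of Clec4a2 was not tested. Clec4b2, the remaining gene of the row and not among the 10, likewise did not exceed background on any of them.

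The Kupffer cell lectin gene Clec4f and the endothelial lectin gene Clec4g lie outside the chromosome 6 row. Clec4f encodes a galactose-binding receptor that in mice is found on Kupffer cells. Its signal was 83399 and 71121.5 in MaR1 samples, against 83073 and 80217 in Veh samples. The scaled levels overlapped (6.43 ± 0.05 in MaR1 and 6.39 ± 0.06 in Veh, SD, n = 2 each), and the log2 difference was 0.04 ± 0.07, with a sign that depended on the scaling: it was -0.08 with quantile normalization and -0.08 with no scaling between arrays. Clec4g encodes LSECtin, which is known from sinusoidal endothelial cells and binds glycans of viruses and of activated T cells. Its signal was 9964 and 8247 in MaR1 samples, against 10922 and 11387 in Veh samples. Levels averaged 3.34 ± 0.08 in MaR1 and 3.52 ± 0.01 in Veh (SD, n = 2 each), with no overlap but a gap of only 0.11, and a log2 difference of -0.18 ± 0.07. That difference was close to the one of Clec4a4 in the row: relative to Clec4g, Clec4a4 differed by -0.05, with array pairings between -0.30 and 0.20.

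Because Clec4f was measured on the same arrays, its signal gives a ratio that no constant factor per array can change. Relative to Clec4f, the difference of Clec4n (MaR1 minus Veh) was -2.10 on the log2 scale, with values between -2.17 and -2.02 over the 4 pairings of a MaR1 with a Veh array. That of Clec4d was -1.86 (from -1.92 to -1.81), of Clec4b1 -1.80 (from -1.89 to -1.70), of Clec4e -1.28 (from -1.32 to -1.24) and of Clec4a1 -1.15 (from -1.26 to -1.05). That of Clec4a3 was -0.49 (from -0.58 to -0.40) and of Clec4g -0.22 (from -0.29 to -0.14), whereas the pairings of Clec4a4 ran from -0.55 to 0.02. These ratios show unequal change of the genes and not that Clec4f was constant.

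Of the 9 measured genes, 5 were at least 2-fold lower by fitted difference, where 1.14% of all 24055 genes were. In 7 of the 9 the MaR1 arrays were both below the Veh arrays, as they were for 36.8% of all genes, and 0 members had them both above, as 32.7% of all genes did (69.6% in either direction). The median log2 difference of the 9 was -1.11, and that of all genes was -0.02. Since the contrast was known when the genes were chosen, nothing is read from these shares. The error that the scanner software gives for a spot was 10.0% to 10.9% of the signal for these genes.

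**Figure D2:**
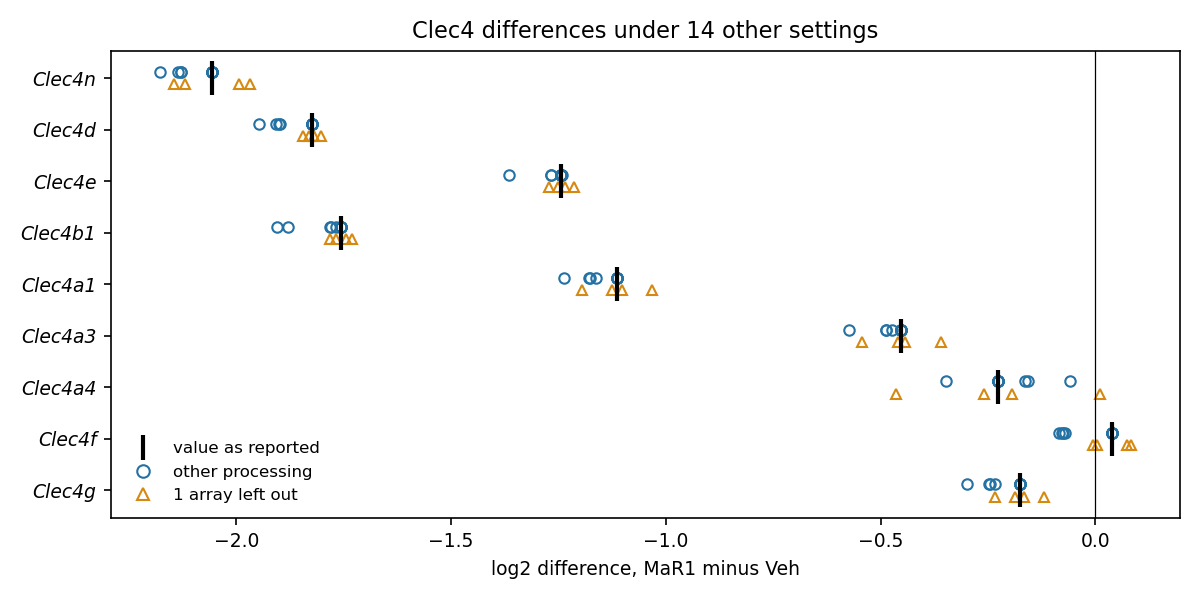
Log2 difference (MaR1 minus Veh) of the 9 measured Clec4 genes as reported (bars), under other processing (circles) and with 1 array left out (triangles), 14 settings in all. The values of Clec4n, Clec4d, Clec4b1, Clec4e and Clec4a1 stay below -1 in every one of these settings, and those of Clec4f and Clec4a4 lie on both sides of 0.

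Genes next to the Clec4 genes on the chromosome were taken as the nearest 5 tested genes on each side, a rule set after the data had been seen. For these and the lists below, a gene is said to have risen or fallen where limma's p, adjusted by Benjamini-Hochberg over all 24055 genes, was under 0.05. Over all genes 11.2% rose and 12.8% fell, or 24% in either direction, so that 46.8% of calls were higher, and with no scaling between arrays 26.9% were. Around the chromosome 6 row, 4 of 10 neighbours were lower, 2 were higher and 4 did not pass, with a median of -0.04. On the Clec4a1 side, Slc2a3, a neuronal-type glucose transporter gene, fell (-0.95 ± 0.09, limma adjusted p = 0.00791), as did Foxj2 (-0.39 ± 0.05, adjusted p = 0.016) and Nanog (-0.33 ± 0.07, adjusted p = 0.0374), while the nearest genes, C3ar1 (-0.08 ± 0.06) and Necap1 (-0.01 ± 0.06), did not pass (limma adjusted p = 0.364 and 0.903). On the Clec4e side, Cd163, the haemoglobin scavenger receptor gene, rose (1.38 ± 0.15, limma adjusted p = 0.00986). Vmn2r19, a vomeronasal receptor gene, was not well above background on either Veh array. It passed the filter, and entered the count of higher neighbours, only through the MaR1 arrays. With the scaling used it was at least 2.39-fold higher, but its log2 difference ran from 0.59 to 2.64 over the settings. Its probe may also read relatives. The call of Cd163 was lost without MaR1 replicate 2 (limma adjusted p = 0.0567), and those of Foxj2 and Nanog when any 1 array was left out (adjusted p up to 0.0825 and 0.153).

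Around Clec4f, 9 of 10 neighbours did not pass, among them Stambp (-0.08 ± 0.05), and the langerin gene Cd207 fell (-0.29 ± 0.05, limma adjusted p = 0.03), a call lost when any 1 array was left out (up to 0.129). Around Clec4g, 2 were higher, 2 lower and 6 did not pass. Of these, the low-affinity IgE receptor gene Fcer2a rose (1.25 ± 0.23, limma adjusted p = 0.0273) and Mcemp1, a membrane protein gene of mast cells and other myeloid cells, fell (-0.86 ± 0.06, limma adjusted p = 0.00431). The call of Fcer2a was lost without either MaR1 array and without Veh replicate 1 (adjusted p up to 0.096).

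**Figure D3:**
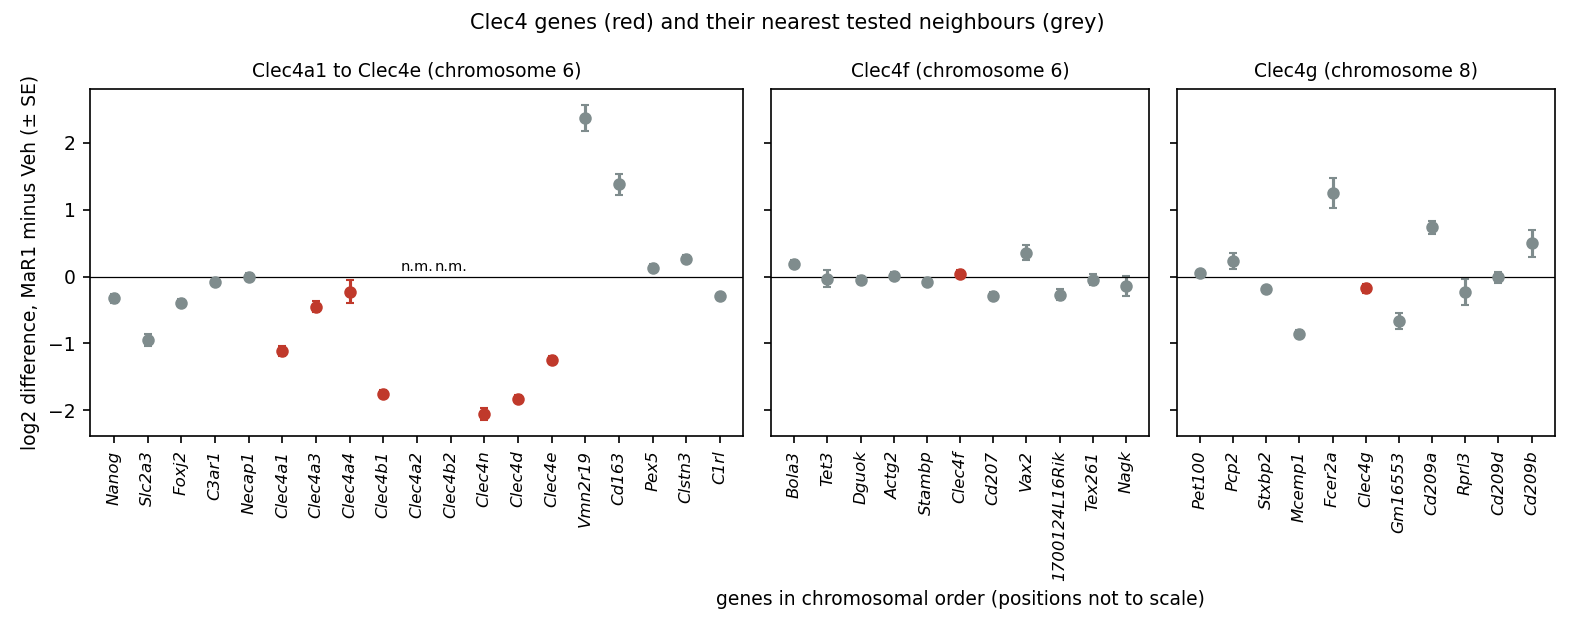
Log2 difference (MaR1 minus Veh, with the SE of the limma fit, 2 arrays per group) of Clec4 genes in red and of the nearest 5 tested genes on each side in grey, in chromosomal order and not to scale; n.m. marks Clec4a2 and Clec4b2, which were not well above background. The red points of the chromosome 6 row run from -2.06 to -0.23, between grey neighbours that lie on both sides of 0.

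Of the genes on which the activating Clec4 receptors rely, Fcer1g, Syk, Card9 and Bcl10 did not pass the test. Fcer1g, which encodes the gamma chain that pairs with Dectin-2, Mincle and DCAR, was bright and had a level of 6.84 ± 0.01 in MaR1 and 6.91 ± 0.04 in Veh samples (SD, n = 2 each), a difference of -0.07 ± 0.06 that did not pass (limma adjusted p = 0.401). Syk, the kinase gene next in the chain, differed by -0.01 ± 0.06 (adjusted p = 0.932). Card9, whose product links SYK to NF-kappaB, differed by -0.08 ± 0.11 (adjusted p = 0.635). Its probe was dim (level -3.08 in MaR1 and -3.01 in Veh), and the difference ran from -0.22 to 0.06 over the settings. The partner gene of Card9, Bcl10, differed by 0.16 ± 0.08 (adjusted p = 0.207). Malt1, the paracaspase gene of the same complex, rose by 0.68 ± 0.06 (adjusted p = 0.00667). For the inhibitory arm, the phosphatase gene Ptpn6 (SHP-1) fell by 0.27 on the log2 scale (-0.27 ± 0.06, adjusted p = 0.0423), a call lost when any 1 array was left out (adjusted p up to 0.168), and Ptpn11 (SHP-2) had 0.01 ± 0.06 (adjusted p = 0.916).

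On the whole list of lectin receptor signalling genes, 7 of 32 measured genes rose and 8 fell, while 17 did not pass, beside the 11.2% and 12.8% of all genes that did so. The list's median was -0.06 in log2 units, against -0.02 over all genes. Besides Malt1, the ubiquitin ligase gene Cblb (0.94 ± 0.09), the NF-kappaB subunit gene Rel (0.80 ± 0.08), the exchange factor gene Vav3 (0.65 ± 0.06) and the kinase gene Src (0.52 ± 0.06) rose. Nfatc1 (-0.60 ± 0.06), the lipid phosphatase gene Inpp5d (-0.48 ± 0.06), Vav1 (-0.34 ± 0.06) and Tec (-0.49 ± 0.09) fell. Only 4 of the 7 higher genes (Malt1, Vav3, Rel and Cblb) and 1 of the 8 lower genes (Nfatc1) kept their limma calls whichever array was left out. With 1 array left out, 4 or 5 genes of this list were higher and 1 to 3 lower.

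Genes listed as products or response genes of C-type lectin receptor and CARD9 signalling went both ways, with more higher than lower. Of 25 measured genes, 13 rose and 3 fell, 9 did not pass, and the median was 0.25. Among all genes 11.2% rose and 12.8% fell. Nos2, whose enzyme makes nitric oxide, rose by 1.94 ± 0.06, the neutrophil chemokine gene Cxcl1 by 1.66 ± 0.11, the cyclooxygenase gene Ptgs2 by 1.28 ± 0.07, the transcription factor gene Egr2 by 1.25 ± 0.06 and Cxcl3 by 0.91 ± 0.06. The inflammatory cytokine genes Il1b (-0.56 ± 0.05) and Tnf (-0.43 ± 0.06) and the chemokine gene Ccl3 (-0.37 ± 0.06) fell. The calls of 8 of the 13 higher genes held whichever array was left out, as did that of Il1b, while Tnf lost its call without MaR1 replicate 2 or either Veh array (limma adjusted p up to 0.0824) and Ccl3 without any 1 of the 4 arrays (up to 0.1). The products Il12a, Il2 and Il23a were not well above background.

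Other C-type lectin genes of myeloid and endothelial cells went both ways. Of 31 measured genes, 14 rose, 6 fell and 11 did not pass, with a median of 0.28, beside 11.2% higher and 12.8% lower among all genes. The oxidised-lipoprotein receptor gene Olr1 rose by 2.05 ± 0.10 and Clec10a, a galactose-type lectin gene of alternatively activated macrophages, by 1.41 ± 0.07. Mrc1, the mannose receptor gene, rose by 1.08 ± 0.10, Clec9a, a dendritic cell receptor gene for dead cells, by 0.99 ± 0.06 and the activation marker gene Cd69 by 0.89 ± 0.07. Of the 14 calls these 5 were kept whichever array was left out. Of the CD209 genes, relatives of DC-SIGN that neighbour Clec4g, Cd209a (0.73 ± 0.10, limma adjusted p = 0.0162) and Cd209f (0.71 ± 0.07, adjusted p = 0.00874) rose, and Cd209b (0.50 ± 0.20, adjusted p = 0.15) and Cd209g (-0.16 ± 0.10, adjusted p = 0.312) did not pass. Nor did Cd209d (-0.01 ± 0.08, limma adjusted p = 0.92), and Cd209c and Cd209e were not well above background. The probes of Cd209a (level -4.06 in MaR1 and -4.79 in Veh) and Cd209f (-4.19 and -4.90) were dim. Over the settings their differences were as small as 0.34 and 0.19. The call of Cd209a was lost without either MaR1 array (up to 0.0745) and that of Cd209f without MaR1 replicate 2 (0.0509).

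Among the lectin genes that fell, Klra2 fell most (-2.41 ± 0.07). Clec14a (-0.98 ± 0.06), an endothelial gene, Clec2i (-0.72 ± 0.08), Clec12a (-0.67 ± 0.06), which encodes an inhibitory receptor for uric acid crystals, and Clec5a (-0.56 ± 0.07), which encodes an activating receptor for flaviviruses, fell as well, and the call of Clec5a was lost without MaR1 replicate 1 or either Veh array (limma adjusted p up to 0.0647). The probe of Clec14a was dim (level -4.52 in MaR1 and -3.54 in Veh). Its difference ran from -1.11 to -0.40 over the settings. Klra2 belongs to a gene family, and whether its probe also reads relatives was not tested. Clec1b, the podoplanin receptor gene and another lectin known from Kupffer cells, rose by 0.28 ± 0.06 (limma adjusted p = 0.0474), but did not pass without any 1 of the 4 arrays (up to 0.189) or with quantile normalization. No probe was named for Clec7a, the gene of Dectin-1, and it was not analysed here.

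**Figure D4:**
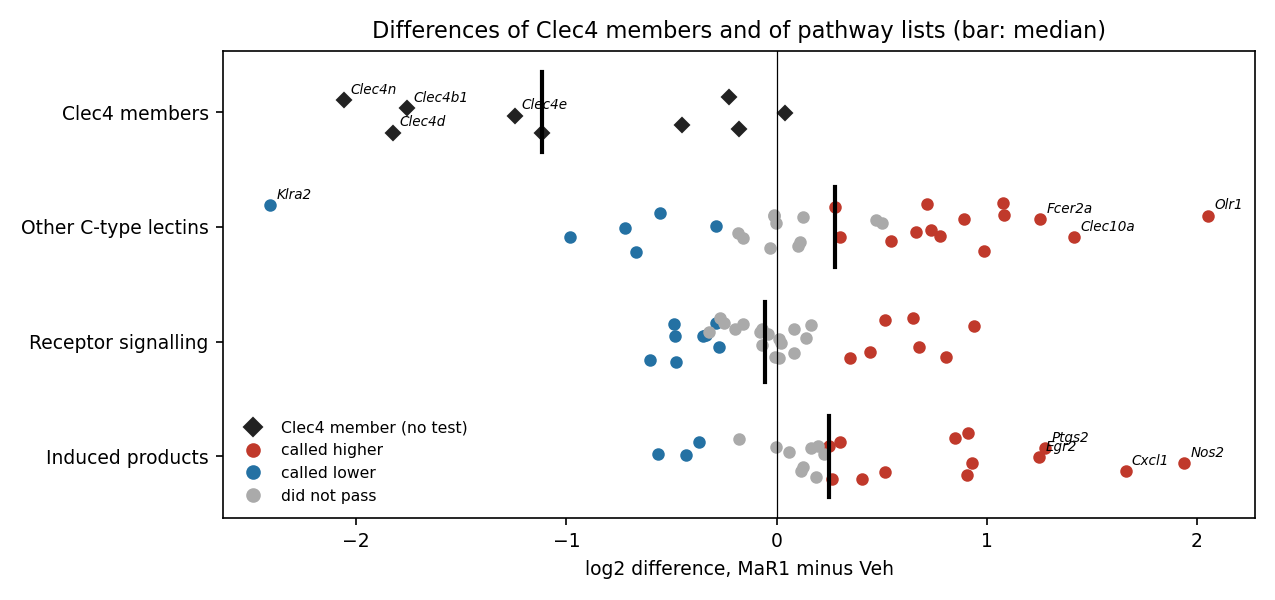
Log2 differences (MaR1 minus Veh) of the 9 measured Clec4 genes (diamonds, no test) and of the 31, 32 and 25 measured genes of 3 related lists, coloured by their limma call, with a bar at each median. The median is -1.11 for the Clec4 genes, 0.28 for other C-type lectins, -0.06 for receptor signalling and 0.25 for induced products.

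Genes with the most similar profile over the 4 arrays were found by the Euclidean distance between levels centred on each gene's mean. Their close differences follow from this choice and are no separate result. Nearest to Clec4e were Klra9 (distance 0.03 on the log2 scale, difference -1.25), Irak3 (0.04, -1.27), the gene of an inhibitor of Toll-like receptor signalling, and the stress kinase gene Map3k5 (0.05, -1.26). Nearest to Clec4n were Scel (distance 0.12), which was not well above background on either MaR1 array and was at least 3.21-fold lower, the formyl peptide receptor relative Fpr-rs6 (0.18, difference -1.89) and the water channel gene Aqp8 (0.20, -1.94). Fpr-rs6 was dim in MaR1 (level -5.10, against -3.21 in Veh), and its difference ran from -2.01 to -0.74 over the settings. Whether the probe of Klra9 also reads relatives was not tested. Nearest to Clec4f were Zbtb42, Ubxn1 and Rhoa (distances 0.01 each), all with differences of 0.04 or 0.05 that did not pass.

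The cultures can hold other liver cells that express Clec4 genes. The counts of each cell type list stand beside the 11.2% of all genes that rose and the 12.8% that fell. Of the 17 measured monocyte and neutrophil markers, cells in which Clec4d, Clec4e and Clec4n are also known to be expressed, 3 rose and 4 fell, calls kept whichever array was left out. The summed level of that list, in multiples of the array's 75th percentile, was 288 to 304 in MaR1 and 267 to 275 in Veh samples. Such a sum follows its brightest probes, and heights of different probes are not comparable. The median log2 difference of the list was -0.04. Its brightest gene, Ly6c2, differed by -0.04 ± 0.07 (limma adjusted p = 0.69), and Cxcr2 and Ngp were not well above background. Those that fell were Itgam, Ccr2, Cx3cr1 and Mmp8 (-1.53 ± 0.08), and those that rose included F10 (1.07 ± 0.07) and Chil3 (3.80 ± 0.11), a chitinase-like gene that alternatively activated macrophages also express. These names were chosen after their values were seen. Dendritic cell markers stand beside Clec4a4 and Clec4b1: 9 of 15 rose (5 of the 9 whichever array was left out), with a sum of 270 to 279 in MaR1 and 218 to 222 in Veh, Bst2 as the brightest (0.07 ± 0.06, limma adjusted p = 0.377) and Xcr1 not well above background. The part of these cells in the decreases of the Clec4 genes was not tested.

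Sinusoidal endothelial markers stand beside Clec4g: 7 of 17 rose and 3 fell, of which 2 and 0 held with any 1 array left out, with a sum of 164 to 166 in MaR1 and 142 to 149 in Veh samples. Egfl7 was the brightest of them (0.10 ± 0.06, limma adjusted p = 0.29), and Kdr was not well above background. Kupffer cell identity genes stand beside Clec4f: 4 of 24 rose and 5 fell, where 11.2% and 12.8% of all genes did. Of these, 0 and 3 held with any 1 array left out. The median of the list was 0.11, and its sum was 1546 to 1559 in MaR1 and 1664 to 1720 in Veh samples. The 3 were Spic (-1.71 ± 0.05), a transcription factor gene of iron-recycling macrophages, Slc40a1 (-0.82 ± 0.08), whose product exports iron, and the macrophage surface marker gene Adgre1 (-0.67 ± 0.06), named after their values were seen. The part of these cells in the values of Clec4g and Clec4f was not tested. Of hepatocyte markers 3 of 12 fell, 1 of them whichever array was left out (sum 30.7 to 32.3 in MaR1 and 34.5 to 36.9 in Veh, Trf brightest, Cps1 and Pck1 not above background). Of stellate cell markers 3 of 9 fell, 0 of them whichever array was left out (sum 38.4 to 39.4 in MaR1 and 41.4 to 41.5 in Veh, Acta2 brightest, Des, Hand2 and Lrat not above background). Of B cell markers 4 of 8 rose, 2 of them whichever array was left out (sum 8.73 to 8.93 in MaR1 and 6.75 to 6.88 in Veh, Cd22 brightest, Blk not above background). Of T and NK cell markers 3 of 13 rose and 6 fell, of which 2 and 0 held with any 1 array left out. Their sum was 84.1 to 89.7 in MaR1 and 56.0 to 57.1 in Veh. The granzyme gene Gzma was the brightest and rose by 1.37 ± 0.09, from a level of 4.23 in Veh to 5.60 in MaR1. The median log2 difference of the list was -0.22, and 9 of the 13 genes had a negative difference and 4 a positive one.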

How the data were processed

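RNA of cultured Kupffer cells was labelled with Cy3 and hybridised to 4 Agilent arrays of 1 colour. Linear intensity values came from Agilent Feature Extraction 11.0.1.1, which the authors ran, per the file headers and processing notes, and which subtracts background within an array. The headers name genome build mm9 for the array design, and RefSeq names and promoters of GRCm38.p6 were used. The value table deposited by the authors holds log2 values, whose scale and filter are not given in the sources used here (column medians 9.07, nearly equal sorted columns, as after quantile normalization), and served as an alternative.

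Control and outlier spots were left out, spots of a probe averaged, and log2 processed signal was scaled to each array's 75th percentile. Probes had to pass the background criterion on both MaR1 or both Veh arrays (31128 of 56605). The brightest kept probe stood for a gene, which gave 24055 genes; 33006 probes matched a RefSeq symbol. Where a gene failed that criterion on both arrays of a group, the fold is a bound, set per array by its dimmest passing probe or, if higher, the gene's own signal. R 4.3.3 with limma 3.58.1 (lmFit, eBayes) gave two-sided p-values, adjusted by Benjamini-Hochberg over all genes at a threshold of 0.05, without a replicate term. The fit was tested on simulated data. Normexp (offset 50) used the median spot signal. Figures used matplotlib 3.10.9. The number of arrays limits the precision.

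The members and lists were chosen with earlier results of these data known. Named genes were all members, up to 5 genes per direction of each pathway list with the smallest unadjusted p, set pathway genes, the brightest and the undetected gene of each cell type list, and the 3 most similar profiles; a few genes that this rule or a list would name are not reported here. Neighbouring genes and motifs were added after the data had been seen.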

Additional observations from a re-analysis of the deposited data

How the results depend on the processing

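Over 14 alternatives the differences of Clec4n, Clec4d, Clec4b1, Clec4e, Clec4a1, Clec4a3 and Clec4g stayed negative, with values of -2.18 to -1.97 for Clec4n and -1.37 to -1.21 for Clec4e. Clec4a4 was positive in 1 and Clec4f negative in 5. With no scaling between arrays the median of all genes shifted by -0.12, and the calls were 1447 higher and 3940 lower, against 2699 and 3069 as reported. Deviations from the group mean had a correlation of -0.03 over genes between arrays with the same replicate number. That value cannot show whether the samples were paired. With the number as a replicate block, 1766 genes were higher and 1926 lower, and 3 of the 8 lower signalling genes passed. With no filter on dim probes the counts were 1087 and 972 over all genes, 3 lower signalling genes, 6 higher other lectins, and 8 higher and 1 lower induced products. A variance trend gave 4525 and 4670. Without scaling 4 signalling genes and 8 induced products were higher, normexp with quantile normalization gave 13 lower signalling genes, and testing every probe gave 5 lower induced products. Leaving out 1 array gave 1009 to 1334 higher and 914 to 1489 lower genes, 4 to 5 higher and 1 to 3 lower signalling genes, 5 to 10 higher and 4 to 5 lower other lectins, and 8 to 9 higher and 1 to 2 lower induced products; fewer arrays were fitted there. The causes of the other shifts were not tested. Dim probes (among them those of Clec4a2, Clec4a4, Card9, Clec14a, Cd209a, Cd209f and Fpr-rs6) limit what can be said of those genes.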
